A study of Mus musculus with 8 samples.

Results

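Autophagy delivers cytoplasm and organelles to the lysosome inside a double-membrane vesicle, the autophagosome. The transcripts of 38 genes of this machinery were followed in mouse lymphatic endothelial cells (SV-LECs) with and without TGFβ1. The genes were taken by symbol from a count table of 55471 genes, and each of the 38 symbols matched exactly 1 row. They were divided by step into 8 genes of initiation and lipid supply, 7 of nucleation, 15 of conjugation and 8 receptors. SV-LEC is 1 SV40-immortalized line from mesenteric adventitial tissue of the mouse, so all libraries share that origin. The study lists high-glucose DMEM with 10% FBS for culture of the line. It does not state the serum level of the cultures that gave RNA, and its conditioned medium was collected at low serum. RNA came from 4 non-treated samples (untreated in the plots) and from 4 samples that had received 10 ng/ml TGFβ1 over 72 h. The study calls these technical replicates. All errors and p-values below therefore measure the spread between libraries of 1 culture experiment, not between independent experiments.

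In mammalian cells autophagosome formation starts with the ULK kinase complex (ULK1 or ULK2 with FIP200, ATG13 and ATG101). The lipid kinase VPS34 with beclin 1 then marks the site of nucleation. A pair of ubiquitin-like reactions couples ATG12 to ATG5 and couples LC3 and GABARAP proteins to phosphatidylethanolamine, and cargo receptors bind these lipidated proteins. In endothelial cells autophagy is known for its part in the response to nutrient supply, shear stress and mitochondrial damage. The libraries measured polyadenylated RNA, and neither protein, lipidation nor autophagic flux was measured.

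Total counts were between 18952504 and 26386941 per library. Values are given as CPM, counts scaled to library size after TMM normalization. Every member had between 191 and 10028 counts in every library, and all 38 passed the filter on low counts. The identity of the cells was examined with marker genes. Sums below are over all markers of a list, also those that did not pass the filter. Of 7 lymphatic markers 3 passed the filter (Flt4, Pdpn and Nrp2), while Prox1, Lyve1 and Itga9 were near 0 and Ccl21a was at 0. The summed levels were 412 to 448 CPM in non-treated and 427 to 441 CPM in TGFβ1-treated libraries. Most of this sum was Pdpn, with means of 342 and 313 CPM. Pdpn fell (log2 fold change -0.13), and Flt4 and Nrp2 rose (0.44 and 0.41). Of 6 endothelial markers 2 passed (Kdr and Tek), and the sums of the list were 11.4 to 13.1 and 22 to 23.8 CPM. Pecam1 and Cdh5 were near 0, and Tie1 and Erg were at 0 in all libraries. The defining markers of the labelled cell type were thus largely absent. Of 5 mesenchymal markers 4 passed, with sums of 3210 to 4530 CPM in non-treated and 5530 to 6660 CPM in treated libraries. Within these, Pdgfra and Dcn fell (log2 fold changes -1.47 and -1.91) and Pdgfrb and Col1a1 rose (0.63 and 0.81). Of 3 immune markers Cd68 alone passed (sums of the list 5.83 to 7.82 and 14.8 to 16.9 CPM), with Adgre1 at 0 and Ptprc near 0. Of 3 epithelial markers Krt18 alone passed (sums of the list 0.202 to 0.626 and 1.08 to 2.75 CPM). The part of these shifts in the results below was not tested. In bulk RNA, fewer cells of a type and less RNA per cell cannot be told apart.

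A sequence element that is often examined in autophagy genes is CACGTG, the core of the element bound by TFEB and related factors, called an E-box. RefSeq promoters (GRCm38.p6, 250 bases before to 50 after the start) were at hand for 31 of the 38 genes, as 35 promoters. The letters CACGTG, which read the same on both strands, occurred in 5 of these promoters (14.3%) and in 7.15% of all 32851 promoters. ACGTG, which is part of CACGTG and was searched on both strands, occurred in 16 of the 35 promoters (45.7%) and in 19.6% of all promoters. GTAAACA, a forkhead (FoxO) element, occurred in none of the 35 on either strand and in 3.65% of all. All windows with CACGTG in these promoters are shown. They belong to the member with the largest fall, Bnip3, and to 4 members that rose. Each is 30 bases long, read 5′ to 3′ on the strand of the gene, with the element in capitals.
Bnip3, chr7:138909597-138909626, minus strand: gcgcacgcgccgCACGTGccacacgctccc
Atg14, chr14:47568418-47568447, minus strand: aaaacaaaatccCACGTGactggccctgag
Atg3, chr16:45158723-45158752, plus strand: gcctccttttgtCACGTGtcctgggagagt
Atg3, chr16:45158746-45158775, plus strand: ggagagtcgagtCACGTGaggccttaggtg
Atg5, chr10:44268313-44268342, plus strand: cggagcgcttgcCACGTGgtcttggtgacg
Atg7, chr6:114670952-114670981, plus strand: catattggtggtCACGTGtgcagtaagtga
Counted from the start that RefSeq gives for each promoter, the element begins 108 bases before it in Bnip3 and 94 and 71 in Atg3. The distance is 132 bases in Atg7, 14 in Atg5 and 1 in Atg14. These starts can differ from the ends of the genes in the annotation used for gene positions. The windows of Atg7 (gene from 114643097 to 114860614) and Atg14 (gene from 47540893 to 47570649) lie inside the gene. As given below, the genes with these windows moved in opposite directions.

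The question addressed was how the expression of each step of autophagy differed between TGFβ1-treated and non-treated SV-LECs. In the likelihood ratio test of edgeR with a threshold of 0.05 on the FDR, 17 members were higher (37.6% of all genes were) and 12 were lower (38% of all genes), which is 76.3% of the 38. This share lies near the background, since 75.6% of all 13818 genes tested passed the same test. Likewise the groups did not overlap in 29 members, and they did not overlap in 69.8% of all genes. With libraries scaled by total counts alone, 14 members were higher and 16 lower, and of all genes 4627 were higher and 5899 lower. Because the test against no change was passed by most genes, a change larger than a log2 fold change of 0.5 was tested as well (glmTreat). This was passed by 5 members upward (Ulk1, Rb1cc1, Atg2a, Atg14 and Wipi1), where 16.9% of all genes did so. It was passed by 3 members downward (Bnip3, Gabarapl1 and Fundc1), where 13.1% of all genes did so. Together this was 21.1% of the members against 30.0% of all genes. The median absolute log2 fold change was 0.31 over the members and 0.39 over all genes tested, and the log2 fold changes of the members spanned -1.03 to 0.90. By step, the median log2 fold change was 0.16 for initiation and lipid supply, 0.38 for nucleation, 0.09 for conjugation and -0.29 for the receptors, and -0.01 for all genes tested.

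**Figure D1:**
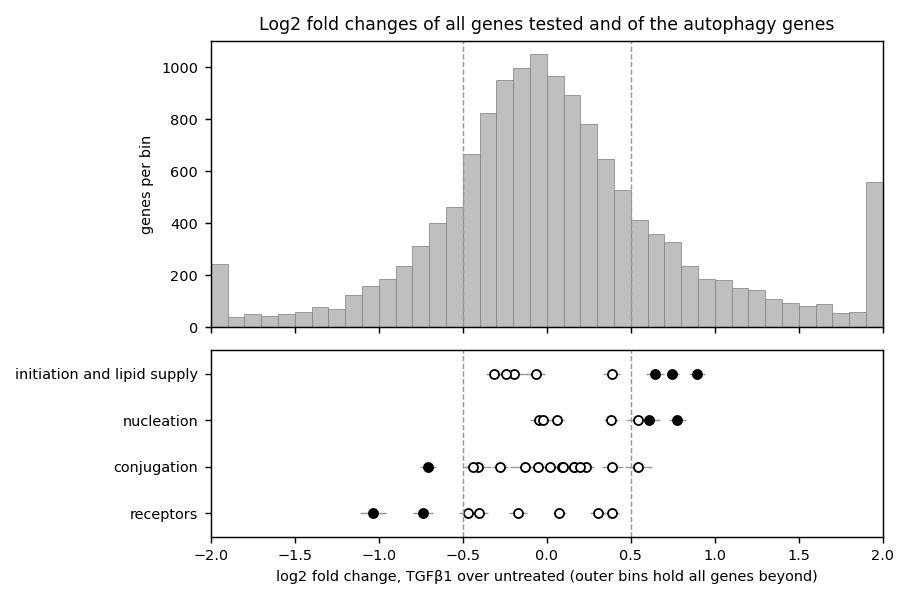
The upper panel counts all 13818 genes tested by log2 fold change (TGFβ1 over non-treated) in bins of 0.1, with 243 genes in the lowest bin and 557 in the highest bin because these hold everything beyond the axis. The lower panel shows the 38 members by step with standard errors, filled where the change passed the test against 0.5 (dashed lines), and the 5 filled points on the right are initiation and nucleation genes while the 3 on the left are conjugation and receptor genes.

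**Figure D2:**
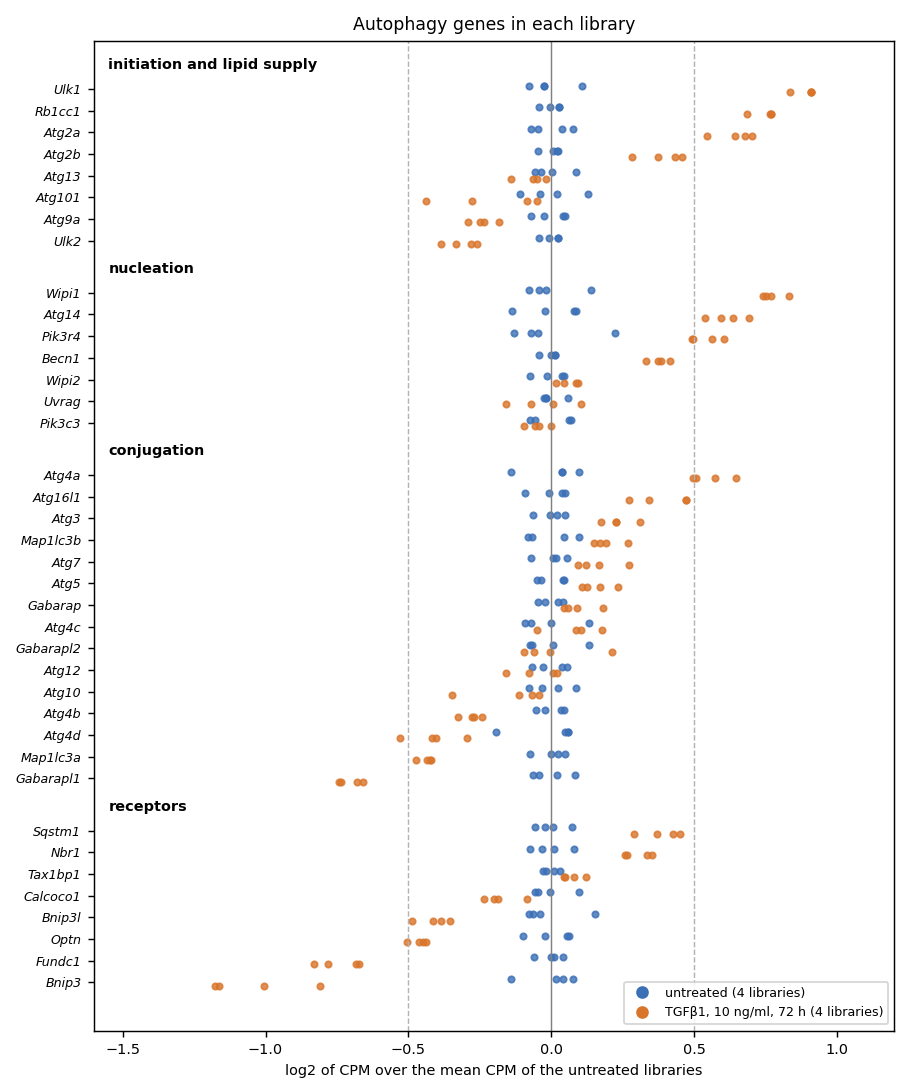
Each point is 1 library, placed at the log2 of its CPM over the mean CPM of the 4 non-treated libraries, with non-treated libraries in blue and TGFβ1-treated libraries in orange. The groups did not overlap in 29 of the 38 genes, and the dashed lines mark differences of 0.5 on the log2 scale.

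Among the initiation genes, the kinase gene Ulk1 and its scaffold partner Rb1cc1 rose, while the related kinase gene Ulk2 fell. Ulk1 (ENSMUSG00000029512, GRCm38 chromosome 5, 110784488 to 110810097, minus strand) encodes the kinase that receives signals from mTORC1 and AMPK. Its levels were 124, 113, 109 and 113 CPM in the non-treated libraries and 216, 216, 216 and 205 CPM after TGFβ1. All TGFβ1-treated libraries lay above all non-treated ones, and the groups were far apart compared with the spread within each. The log2 fold change was 0.90 (standard error 0.0478, edgeR FDR = 1.62e-76, and edgeR FDR = 5.28e-17 against a change of 0.5), the largest rise of the 38 genes. Rb1cc1 (ENSMUSG00000025907, chromosome 1, 6206197 to 6276648) encodes FIP200, the large scaffold of the complex. It went from 222, 233, 233 and 228 CPM to 368, 390, 390 and 389 CPM, again without overlap. The log2 fold change was 0.75 (standard error 0.0395, edgeR FDR = 7.08e-78, and edgeR FDR = 1.71e-10 against 0.5).

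Ulk2 encodes a second kinase that can take the place of ULK1. It was at 84.9, 82.9, 86.7 and 86.8 CPM in non-treated cells and at 67.8, 70.3, 71.3 and 65.4 CPM in TGFβ1-treated cells. The groups did not overlap, with a log2 fold change of -0.31 (standard error 0.0467, edgeR FDR = 5.04e-11), which did not pass the test against 0.5. Per kilobase of exon, both kinase genes had similar levels in non-treated cells, with 17.7 ± 1.04 CPM per kb for Ulk1 and 14.3 ± 0.307 for Ulk2 (SD, n = 4). After TGFβ1 they stood at 32.8 ± 0.877 and 11.5 ± 0.447 CPM per kb (SD, n = 4).

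The small subunits of the kinase complex did not share the rise of Ulk1 and Rb1cc1. Atg13 had a log2 fold change of -0.07 (standard error 0.0526, edgeR FDR = 0.246). Atg101 fell by 0.20 on the log2 scale (standard error 0.0872, edgeR FDR = 0.0313) with overlapping groups, from 21.2 to 25 CPM in non-treated cells and from 16.9 to 22.1 CPM after TGFβ1. The call for Atg101 was lost without non-treated replicate 1 (edgeR FDR = 0.101), non-treated replicate 4 (0.0581), TGFβ1 replicate 1 (0.141) or TGFβ1 replicate 2 (0.0884). Atg9a, which encodes a multispanning membrane protein of the core machinery, fell from 35.9 ± 1.36 to 30.4 ± 0.976 CPM (SD, n = 4, log2 fold change -0.24). Of its read-length stretches, 28.8% are shared with Gm29253 and others on the same strand, and Gm29253 had 0 counts in every library. Rb1cc1 has 2.73% opposite 4732440D04Rik, with 34 to 133 counts per library. A stretch here is any 75 bases, the read length, of a gene's exons, and since the use of strand in counting is not stated, reads from overlapping genes on opposite strands cannot be told apart.

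Both genes for ATG2, the protein that transfers lipid to the growing membrane, rose. Atg2a (ENSMUSG00000024773, chromosome 19, 6241668 to 6262335) was at 60.2, 54.3, 58.6 and 55.3 CPM in non-treated and at 89.1, 83.3, 91.3 and 92.8 CPM in TGFβ1-treated libraries. Its log2 fold change was 0.64 (standard error 0.0534, edgeR FDR = 1.23e-32, and edgeR FDR = 0.00297 against 0.5). Against 0.5 it did not pass when libraries were scaled by total counts (edgeR FDR = 0.0743). Atg2b went from 64.3, 64.9, 65.2 and 62 CPM to 86.5, 88, 77.9 and 83.1 CPM, which is 0.39 on the log2 scale (standard error 0.0504, edgeR FDR = 5.22e-14). Neither gene had overlapping groups. Of the read-length stretches of Atg2b, 4.91% lie on the opposite strand of other genes, mainly Gskip, which had 601 to 830 counts per library.

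In the nucleation step 4 of 7 genes rose and none fell at an FDR under 0.05. These 57.1% compare with 75.6% of all genes called, 37.6% higher and 38% lower. Wipi1 (ENSMUSG00000041895, chromosome 11, 109573331 to 109611967, minus strand) encodes a reader of the phosphoinositide made by VPS34. It was at 87.9, 90, 91.5 and 102 CPM in non-treated cells and at 156, 155, 158 and 165 CPM after TGFβ1. The lowest treated library lay well above the highest non-treated library, and the log2 fold change was 0.78 (standard error 0.0506, edgeR FDR = 7.51e-52, and edgeR FDR = 1.79e-08 against 0.5). Wipi2, whose product binds ATG16L1, was at 185, 193, 201 and 200 CPM before and at 208, 207, 197 and 201 CPM after TGFβ1. These groups overlapped, with a log2 fold change of 0.06 and a 95% interval from -0.02 to 0.14.

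Atg14 and Uvrag encode alternative subunits that direct the VPS34 complex to autophagosome formation or to later endosomal steps, and they differed in response. Atg14 (ENSMUSG00000037526, chromosome 14, 47540893 to 47570649, minus strand) was at 18.1, 21.1, 21 and 19.6 CPM in non-treated and at 28.9, 32.1, 30 and 30.9 CPM in TGFβ1-treated libraries. The groups were separate, and the log2 fold change was 0.61 (standard error 0.0659, edgeR FDR = 7.67e-20). Against 0.5 it was only just past the threshold (edgeR FDR = 0.0452), and it passed in 7 of 15 alternative settings, with FDRs from 0.0278 to 0.361. It did not pass with DESeq2, with total counts, without a filter, or without any one of non-treated replicates 1 and 4 and TGFβ1 replicates 2, 3 and 4. Uvrag was at 52.5, 49.5, 49.8 and 49.8 CPM and then at 48, 45.2, 50.6 and 54.2 CPM. Its groups overlapped, with a log2 fold change of -0.02 and a 95% interval from -0.14 to 0.10. Of the read-length stretches of Uvrag, 15.6% lie opposite other genes, among them Gm45187 and Gm47233, with at most 6 counts per library.

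The other genes of the VPS34 complex were its catalytic subunit Pik3c3, its regulatory subunit Pik3r4 and Becn1. Pik3c3 was not significantly changed (log2 fold change -0.05, 95% interval from -0.15 to 0.06). Pik3r4 rose from 44.0 ± 4.94 to 63.9 ± 2.37 CPM (SD, n = 4). The difference of 0.54 on the log2 scale (standard error 0.0702, edgeR FDR = 5.04e-14) did not pass the test against 0.5 (edgeR FDR = 0.318). It did pass without non-treated replicate 4, the highest of its group at 51.3 CPM (edgeR FDR = 0.0128). Becn1 rose from 105 ± 2.00 to 136 ± 3.20 CPM (SD, n = 4, log2 fold change 0.38, edgeR FDR = 3.82e-20). Of the read-length stretches of Becn1, 33.6% lie on the opposite strand of Cntd1, which had 20 to 156 counts per library and was higher in non-treated cells, with a mean of 113 counts against 27.2.

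The conjugation machinery showed mostly small changes. Of its 15 genes, 7 were higher, 4 lower and 4 not significantly changed, and Gabarapl1 alone passed the test against 0.5. The 73.3% called lie near the 75.6% of all genes, and the 6.67% past 0.5 compare with 30.0% of all genes. Among the enzymes and their substrates, Atg16l1 (log2 fold change 0.39), Atg3 (0.23), Atg5 (0.16) and Atg7 (0.16) were higher at an FDR under 0.05. Atg3 encodes the E2-like and Atg7 the E1-like enzyme of the pathway, and the ATG12-ATG5-ATG16L1 complex acts as the E3. Atg10 and Atg12 were not significantly changed, with log2 fold changes of -0.13 and -0.05. With libraries scaled by total counts both were called lower (edgeR FDR = 0.0281 and 0.0282). The calls of Atg5 and Atg7 did not hold with libraries scaled by total counts (edgeR FDR = 0.087 and 0.133). That of Atg7 was also lost without a filter (edgeR FDR = 0.0808) and without TGFβ1 replicate 1 (edgeR FDR = 0.056).

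ATG4 proteases process LC3 and GABARAP before conjugation and release them afterwards, and the 4 genes moved in different directions. Atg4a rose, from 10.6, 12.5, 12 and 12 CPM to 18.3, 16.6, 17.4 and 16.5 CPM (log2 fold change 0.54, standard error 0.0801, edgeR FDR = 2.50e-11). Atg4b, the most widely acting of these proteases, fell from 58.3, 54.8, 58.7 and 56 CPM to 48.1, 46.9, 45.4 and 47.2 CPM (log2 fold change -0.28, standard error 0.0494, edgeR FDR = 3.46e-08). Neither gene had overlapping groups. Atg4d fell from 23.8 ± 1.96 to 17.9 ± 1.2 CPM (SD, n = 4, log2 fold change -0.41), and Atg4c had a log2 fold change of 0.09 with a 95% interval from -0.07 to 0.25. The sum of the 4 genes per kilobase of exon was 18.9 ± 0.277 CPM per kb in non-treated and 19.2 ± 0.480 in TGFβ1-treated cells (SD, n = 4). Within this sum the share of Atg4a went from 23.3% ± 1.34 to 33.6% ± 1.37 and that of Atg4b from 36.3% ± 1.47 to 29.4% ± 0.208 (SD, n = 4). Of the read-length stretches of Atg4a, 41.3% are shared with the pseudogene Atg4a-ps, which had at most 9 counts per library, and 9.86% with the opposite strand of Syt6, which had 3 to 51. Atg4d shares 12.2% with the opposite strand of Kri1, which had 557 to 825 counts per library. For Atg4c, 1.28% lie on the opposite strand of other genes, among them Lpl. Lpl had a mean of 15500 counts in non-treated and 7700 in TGFβ1-treated libraries.

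The LC3 and GABARAP genes encode the ubiquitin-like proteins of the autophagosome membrane, and here the 2 subfamilies did not move as blocks. Gabarapl1 (ENSMUSG00000030161, chromosome 6, 129533160 to 129542346) was at 131, 137, 129 and 143 CPM in non-treated and at 84.2, 81, 85.4 and 80.6 CPM in TGFβ1-treated libraries. Every treated library was far below every non-treated one, with a log2 fold change of -0.71 (standard error 0.0475, edgeR FDR = 1.25e-48, and edgeR FDR = 6.17e-06 against 0.5). Its relative Gabarapl2 was at 20.9, 21, 22.1 and 24.1 CPM before and at 20.6, 21.1, 21.9 and 25.5 CPM after TGFβ1, with overlapping groups (log2 fold change 0.02, 95% interval from -0.14 to 0.18). Gabarap, the most abundant member of the machinery at 135 ± 3.63 CPM per kb in non-treated cells (SD, n = 4), had a log2 fold change of 0.09 (edgeR FDR = 0.0379). That call was lost with the replicate number as a block, with total counts, without a filter and without any one of 4 libraries (non-treated replicates 1 and 2, TGFβ1 replicates 1 and 2), with FDRs from 0.0753 to 0.566.

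Map1lc3a and Map1lc3b, the LC3 genes, moved in opposite directions. Map1lc3a fell from 53.3, 54.2, 52.3 and 49.8 CPM to 39.1, 38.8, 37.7 and 39 CPM (log2 fold change -0.44, standard error 0.0504, edgeR FDR = 7.86e-18). Map1lc3b rose from 122, 121, 137 and 132 CPM to 146, 154, 142 and 144 CPM (log2 fold change 0.20, standard error 0.0505, edgeR FDR = 0.000179). In both genes the groups were separate. Summed per kilobase, the 5 LC3 and GABARAP genes went from 273 ± 4.89 to 248 ± 6.14 CPM per kb (SD, n = 4). The share of Gabarapl1 in this sum went from 24.5% ± 0.953 to 16.6% ± 0.765 and that of Gabarap from 49.5% ± 0.730 to 58.4% ± 1.08 (SD, n = 4). These shares use the union of all annotated exons as the length of a gene and are given as a description, without a test. Of the stretches of Gabarapl1, 20.5% lie opposite 1700101I11Rik, with at most 10 counts per library, and 4.07% of those of Map1lc3b are shared on the same strand with pseudogenes, of which Gm6055 had 43 to 72 counts. For Gabarapl2, 9.53% are shared on the same strand with Gm3724, Gm6051 and Gm5829, which had at most 14 counts per library.

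**Figure D3:**
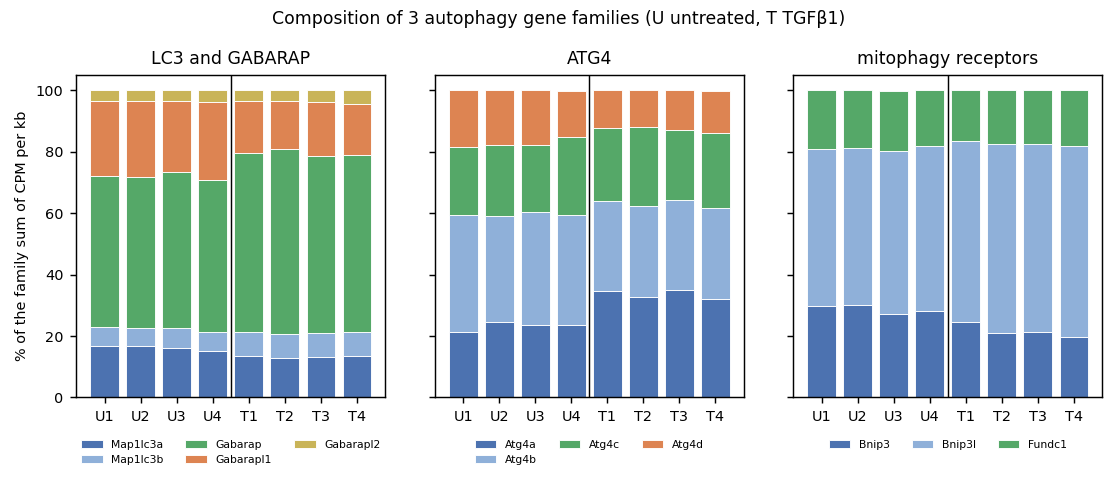
Stacked bars give the percent that each gene contributes to the CPM per kb of its family in each library (U1 to U4 non-treated, T1 to T4 TGFβ1-treated). In the treated libraries the Gabarapl1 band is thinner, the Atg4a band thicker and the Bnip3 band thinner than in each non-treated library.

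Cargo receptors link a target to LC3 or GABARAP, and 8 receptor genes were examined. Those of the outer mitochondrial membrane, Bnip3, Bnip3l and Fundc1, fell. The others were mixed, since Sqstm1 and Nbr1 rose, Optn and Calcoco1 fell, and Tax1bp1 was not called by the likelihood ratio test. Bnip3 (ENSMUSG00000078566, chromosome 7, 138890836 to 138909519, minus strand), which is also known as a target of hypoxia-inducible factor, had the largest fall of the 38 genes. It was at 62.1, 61.1, 54.8 and 63.6 CPM in non-treated and at 34.5, 27, 30.1 and 26.7 CPM in TGFβ1-treated libraries. The groups were widely separated, with a level 2.05-fold lower after TGFβ1 (log2 fold change -1.03, standard error 0.0786, edgeR FDR = 2.26e-38, and edgeR FDR = 4.10e-12 against 0.5). Of its read-length stretches, 32.1% lie opposite other genes and 11.4% are shared on the same strand. The partners that were analysed, Gm45507, Gm16439 and Gm6532, had at most 18 counts in any library, against at least 554 for Bnip3. A further partner on the opposite strand, AC160336.1, was not found in the count table by symbol. Low counts of a partner do not show, here or for other members, that overlap was without effect. Shared reads may have been left uncounted.

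Bnip3l, also called Nix, is the receptor for the removal of mitochondria during red cell maturation. Its levels went from 180, 178, 183 and 209 CPM to 141, 134, 147 and 144 CPM (log2 fold change -0.40, standard error 0.0555, edgeR FDR = 1.21e-12) without overlap. Bnip3l-ps, which shares 16.9% of its stretches, had at most 22 counts per library. Fundc1 (ENSMUSG00000025040, chromosome X, 17556564 to 17572325, minus strand) encodes a further mitophagy receptor and has no shared stretch. It was at 41.3, 39.6, 41.6 and 42.5 CPM in non-treated and at 24, 23.2, 25.9 and 25.7 CPM in TGFβ1-treated libraries, again in separate groups. The log2 fold change was -0.74 (standard error 0.0574, edgeR FDR = 4.07e-37, and edgeR FDR = 1.45e-05 against 0.5). Per kilobase, the sum of the 3 mitochondrial receptor genes went from 92.8 ± 5.10 to 60.3 ± 2.73 CPM per kb (SD, n = 4).

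Sqstm1 encodes p62, which carries ubiquitinated cargo and is itself degraded by autophagy. It rose from 278 ± 10.6 to 363 ± 17.8 CPM (SD, n = 4), or 0.39 on the log2 scale (standard error 0.0467, edgeR FDR = 5.53e-16). Of its stretches, 14.6% lie opposite Mrnip, which had 100 to 349 counts per library against at least 5506 for Sqstm1. Nbr1 rose from 180 ± 8.09 to 222 ± 7.67 CPM (SD, n = 4, log2 fold change 0.30). Optn, which encodes optineurin and acts in the same ubiquitin-dependent route, fell from 33.6 ± 1.73 to 24.4 ± 0.510 CPM (SD, n = 4, log2 fold change -0.47). Calcoco1, a receptor for the endoplasmic reticulum, fell by 0.17 on the log2 scale. Of its stretches, 0.922% are shared on the same strand and 0.905% lie opposite other genes. Its partners include R3hdm1 (same strand, 1843 to 2763 counts per library) and Tmem214 (opposite strand, 2200 to 3692). Tax1bp1 had a log2 fold change of 0.07 and was not called by the likelihood ratio test (edgeR FDR = 0.0687), although its groups did not overlap. It was called by the quasi-likelihood test (edgeR FDR = 0.0452) and by DESeq2 (FDR = 0.0271).

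Ratios of read counts between related genes were formed within each library with 0.5 added to each count, so that library scaling does not enter them. In all 8 ratios examined the non-treated and TGFβ1-treated libraries did not overlap (exact two-sided permutation test, p = 0.0286 for each, the smallest p that 4 against 4 libraries allow, and 0.0286 after Benjamini-Hochberg adjustment over the 8). The pairs were formed from members whose levels are given above and hold no evidence beyond them. They were chosen with earlier results of these data known, so the p-values describe the separation and are no independent test. Among single genes, the groups did not overlap in 69.8% of all genes tested. The ratio of Ulk2 to Ulk1 shifted most. It was 0.683, 0.736, 0.798 and 0.771 in non-treated and 0.315, 0.325, 0.330 and 0.320 in TGFβ1-treated libraries, a difference of -1.21 in mean log2 ratio. The treated libraries lay within a narrow range far below the others.

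For the remaining pairs the differences in mean log2 ratio were smaller. Atg4a to Atg4b increased by 0.83, and Bnip3l to Bnip3 increased by 0.64. Wipi2 to Wipi1 and Gabarapl1 to Gabarapl2 both had a difference of -0.72, and Uvrag to Atg14 and Map1lc3a to Map1lc3b both had a difference of -0.64. Atg2b to Atg2a had the smallest, -0.26, with non-treated libraries between 1.07 and 1.19 and treated libraries between 0.854 and 1.06.

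**Figure D4:**
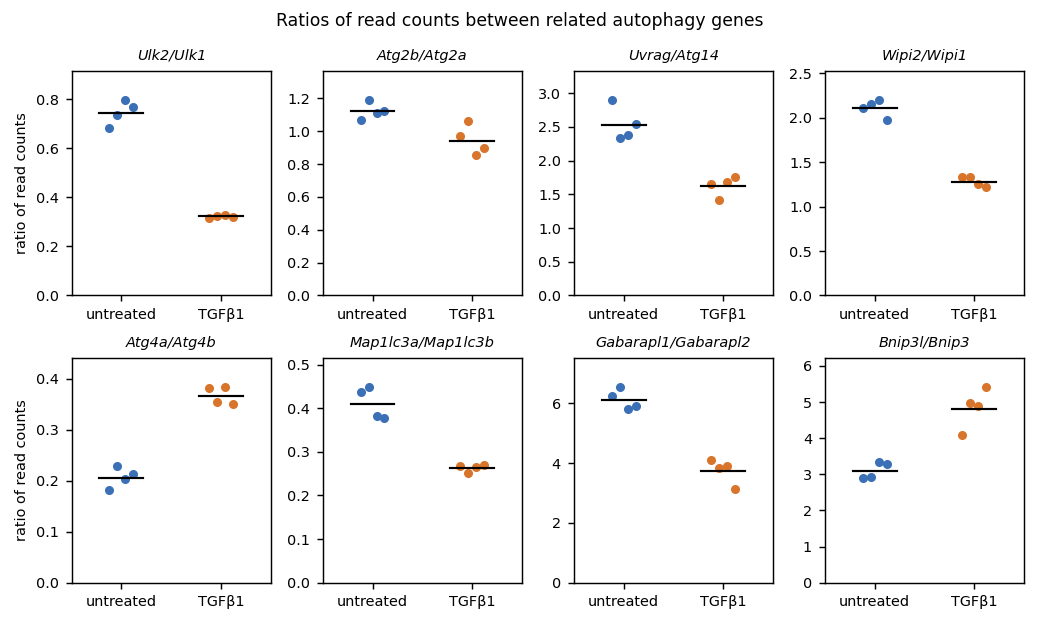
Each panel shows the ratio of read counts of 2 related genes in the 8 libraries (points) with the geometric mean of each group (horizontal lines), on a linear axis from 0. In all 8 panels the groups are separate, and the widest relative gap is that of Ulk2/Ulk1, between 0.683 and 0.330.

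A further 34 genes of autophagy outside the 38 were examined, among them genes of membrane supply, fusion with the lysosome and selective autophagy. Of these, 32 were tested, and 17 were higher and 8 lower at an FDR under 0.05 (78.1%, against 75.6% of all genes). Past the test against 0.5 were 6 upward and 1 downward (21.9%, against 30.0% of all genes, 16.9% upward and 13.1% downward), and the median log2 fold change was 0.17, against -0.01 over all genes. Trp53inp1 and Trp53inp2, whose products bind LC3 and GABARAP proteins, had log2 fold changes of 0.94 and 0.59, and Wdr45, a relative of the WIPI genes, had 0.73. Vps33a, Vps11 and Vps41 of the HOPS tethering complex, which brings autophagosomes and lysosomes together, had 0.83, 0.62 and 0.60. Not all HOPS genes went this way, since Vps18 was higher without passing 0.5 (0.47) and Vps16 and Vps39 were lower (-0.53 and -0.16). Pink1, which encodes the kinase that marks damaged mitochondria, fell from 27.9, 24, 26.9 and 27.1 CPM to 14.6, 14.4, 15.6 and 15.7 CPM (log2 fold change -0.81, standard error 0.0717, edgeR FDR = 5.11e-29). Its groups did not overlap.

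Of 26 upstream regulators, all tested, 17 were higher and 4 lower at an FDR under 0.05 (80.8%, near the 75.6% of all genes). Past 0.5 were 5 upward and 2 downward (26.9%, against 30.0% of all genes), and the median log2 fold change was 0.19. With libraries scaled by total counts, 13 regulators were higher and 4 lower at an FDR under 0.05. The same numbers were found without a filter. Among transcription factors of autophagy genes, Foxo3 rose from 107 ± 5.62 to 209 ± 3.01 CPM (SD, n = 4, log2 fold change 0.97), while Foxo4 fell from 44.0 ± 3.63 to 21.9 ± 2.57 CPM (SD, n = 4), a level 2.01-fold lower. Tfeb, the regulator of lysosomal and autophagy genes, fell from 27.6, 21.6, 23.4 and 21.3 CPM to 12.5, 9.59, 14.7 and 14 CPM (log2 fold change -0.88, standard error 0.120, edgeR FDR = 7.24e-13). Its groups did not overlap. Its relative Tfe3 had a log2 fold change of 0.10 (edgeR FDR = 0.0365). That call was lost with the replicate number as a block (edgeR FDR = 0.092). Mitf had a log2 fold change of -0.46 (edgeR FDR = 5.63e-06). Ddit4 and Tsc2, whose products restrain mTORC1, had log2 fold changes of 0.92 and 0.68. Of other restraining genes, Tsc1 (0.24), Sesn2 (0.13) and Sesn3 (0.50) were higher at an FDR under 0.05. Sesn1 (0.11, edgeR FDR = 0.14), Akt1s1 (0.19, edgeR FDR = 0.324) and Deptor (0.02, edgeR FDR = 0.923) did not pass the test. Deptor had only 23 to 45 counts per library. Genes of mTORC1 itself and its activator were also higher, with 0.33 for Mtor, 0.52 for Mlst8 and 0.13 for Rheb, while Rptor had 0.04 (edgeR FDR = 0.44). Bcl2 and Bcl2l1, whose products bind beclin 1, had log2 fold changes of 1.04 and 0.69.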

How the data were processed

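The authors prepared stranded poly(A) libraries, sequenced single-end reads of 75 bases and mapped them to GRCm38. The submitters' processing notes name bcl2fastq 2.20.0.422, STAR 2.7.3a and featureCounts 1.5.1. The annotation release and the use of strand are not given in the sources used here. The deposited values are raw counts per gene, without normalization, in 8 libraries.

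Libraries were grouped by title. The counts were analysed with edgeR 4.0.16 (R 4.3.3), using filterByExpr as the filter, TMM scaling and a comparison with glmFit and glmLRT, the test the study names, and with glmTreat at a log2 fold change of 0.5. FDRs are Benjamini-Hochberg values over all 13818 genes tested. Standard errors come from the fitted model, and 95% intervals assume a normal distribution. Within groups the chi-square per degree of freedom over genes was 2.37 to 7.84, so no library was a copy of another. A floor of 3 counts was 0.113 to 0.162 CPM, for counting error only. The quasi-likelihood test and DESeq2 1.42.0 were alternatives, with those listed in the closing section, and the pipeline was tested on simulated data. Positions, exon lengths and read-length stretches shared between genes were taken from GENCODE M21 (55144 of 55471 identifiers found), and promoters from RefSeq.

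The 38 genes, both further lists, the markers, ratios and motifs were chosen with earlier results of these data known. Library values are given for members past 0.5 and for genes of the ratios. Genes of the further lists are named where they passed 0.5. Vps16, Vps18, Vps39, Mitf, Tfe3, Deptor, Akt1s1, Tsc1, Sesn1, Sesn2, Sesn3, Mtor, Mlst8, Rheb and Rptor were added after their values were seen. Family sums and shares were also added then.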

Additional observations from a re-analysis of the deposited data

Results flagged for a closer look

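In 76 groups of 4 libraries of single genes and 16 of ratios, 92 in all, 5 held 1 library far from the other 3 by Dixon's criterion, which marks about 5% of groups by chance. Ulk1 in TGFβ1 replicate 4 was at 205 CPM, with 216 in the others. Rb1cc1 in TGFβ1 replicate 1 was at 368 CPM, with 389 to 390 in the others. Uvrag in non-treated replicate 1 was at 52.5 CPM, with 49.5 to 49.8 in the others. In non-treated replicate 4, Atg4d was at 20.8 CPM (others 24.6 to 24.8) and Bnip3l at 209 CPM (others 178 to 183). None of these libraries reached the range of the other group, except for Uvrag, whose groups overlap.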

How the results depend on the processing

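Of the 29 members called at an FDR under 0.05, 25 were called under each of 16 alternatives, and Atg5, Atg7, Atg101 and Gabarap lost the call under at least 1. Of the 16, the prior count of 2 alters only the fold changes and not the test, so it could not remove a call. No called member changed direction. Of the 9 others, 5 were called under some alternative. Atg13, Pik3c3, Atg10 and Atg12 were called lower with total counts (edgeR FDR = 0.0163, 0.0394, 0.0281 and 0.0282). Tax1bp1 was called by the tests named above. The sign changed in 3 of the 9: Wipi2 with total counts (log2 fold change -0.01), Uvrag without TGFβ1 replicate 2 (-0.07 to 0.02 over the libraries left out), and Gabarapl2 with total counts (-0.05), without a filter (-0.01), and without non-treated replicate 1 or 2 or TGFβ1 replicate 4 (-0.05 to 0.07 over the libraries left out). For changes past 0.5, 3 members instead of 5 were higher with total counts, under which the median of all genes tested was -0.07 in place of -0.01 on the log2 scale. With the threshold at 0.25, 11 were higher and 7 lower. With the threshold at 1, edgeR's glmTreat called 0 members in either direction, with 0 members at an unadjusted p under 0.05, and 0 by its quasi-likelihood form and by DESeq2. Leaving out each library in turn gave 15 to 17 members higher, 11 to 12 lower, 4 to 5 higher past 0.5 and 3 lower past 0.5. With the replicate block, 16 members were higher and 12 lower. Same-numbered libraries had deviations correlated between -0.19 and -0.03, and no library correlated best with its own number, so the numbers were not taken as a pairing. All 8 ratios had separate groups with 2 counts added as well. Leaving out a library or pairing by number cannot change this for groups that do not overlap, so those values say nothing about stability.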
